A study of Caenorhabditis elegans with 2 samples.

Results

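The regions described here are 705 stretches of the autosomes whose summit, the position of highest signal, lay just before the start of a protein-coding gene. They come from a chromatin immunoprecipitation and sequencing (ChIP-seq) experiment on the transcription factor ZAG-1 of the nematode Caenorhabditis elegans. The worms were whole L4 larvae, males and hermaphrodites pooled, of strain OP83, which carries an integrated transgene (wgIs83) with an eGFP-tagged ZAG-1 in the unc-119(ed3) background. There was 1 group with 2 biological replicates, so no condition was compared with another. The promoter that drives the transgene was not given in the sources used here, and in whole animals the cells that contribute signal cannot be told apart.

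Of the 4010 regions that the authors listed for both replicates pooled, 3178 lay on autosomes. A region was taken when its summit lay outside every protein-coding gene body and 1 to 1000 bp upstream of the nearest protein-coding start (WBcel235, the ce11 build). This held for 705 regions, or 22.2% of the autosomal regions (Wilson 95% interval 20.8 to 23.7). They are called upstream regions below. The positions that satisfy the same conditions make up 12.2% of the autosomal bases. The authors' reproducibility analysis (irreproducible discovery rate, IDR) kept 246 regions of the whole list, which were those with the highest signal values, and 89 of them were upstream regions. Its input, the pooled list, was made to include background besides peaks. Upstream regions in it went down to a −log10 q of 0.017, so that not every listed region is a binding site. Signal values were scored by the authors and have no replicate error, and with no read counts in the lists the depth is unknown. Intervals treat the regions as independent and do not describe variation between worms.

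ZAG-1 is the worm member of the ZEB family, which has zinc fingers and a homeodomain, and it acts in the differentiation of neurons. Vertebrate ZEB proteins bind E-box-like sequences that contain CAGGTG or CAGGTA. The sequence just before a gene start is where general transcription factors and RNA polymerase II assemble. Many worm genes are trans-spliced, so that an annotated start can lie downstream of the place where transcription begins. Genes are closely spaced in this genome, and neighbours transcribed away from each other often share 1 short upstream stretch.

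Several of the strongest upstream regions held a common word close to the summit. The word was chosen after the sequences had been seen, so that its presence in them is partly built in. The 5 with the highest signal outside the chromosome whose sequence is not printed were those of rpl-3, tasp-1, cdc-48.1, rpl-35 and rpl-15, and all 5 held AACACGCT. The region of egg-5, with a signal between those of rpl-35 and rpl-15, did not hold it, and 8 of the 50 strongest upstream regions did. The stretches from 50 bp before to 50 bp after their summits follow, read from the RefSeq copy of WBcel235, 5′ to 3′ on the strand on which the word reads as given, with the word in capitals.
rpl-3, III:3867515-3867615, minus strand: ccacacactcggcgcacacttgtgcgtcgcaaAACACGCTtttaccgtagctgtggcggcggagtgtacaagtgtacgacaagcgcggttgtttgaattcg
tasp-1, III:10759199-10759299, plus strand: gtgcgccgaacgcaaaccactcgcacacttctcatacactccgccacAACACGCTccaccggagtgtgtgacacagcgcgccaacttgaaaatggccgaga
cdc-48.1, II:10563520-10563620, minus strand: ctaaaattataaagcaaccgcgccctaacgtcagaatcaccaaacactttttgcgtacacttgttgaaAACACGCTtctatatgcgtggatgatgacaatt
rpl-35, III:7854646-7854746, minus strand: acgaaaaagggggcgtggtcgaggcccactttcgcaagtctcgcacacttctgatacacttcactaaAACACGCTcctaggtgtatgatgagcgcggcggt
rpl-15, IV:654881-654981, plus strand: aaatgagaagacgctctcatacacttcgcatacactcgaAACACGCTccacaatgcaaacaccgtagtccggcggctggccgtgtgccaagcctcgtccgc

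Other upstream regions of the IDR list held 1 of 3 further words, GAGACGCAG, CTGCACATC or CGCTACGCA, also chosen after the sequences had been seen. The examples below are shown for their place near the summit, with the word that heads each group in capitals, and the stretch of F01G4.6 is shorter because an annotated gene ends it. The stretch of sec-61.G also holds CTGCACATC, on the other strand and in lower case.
sec-61.G, V:10897334-10897434, plus strand: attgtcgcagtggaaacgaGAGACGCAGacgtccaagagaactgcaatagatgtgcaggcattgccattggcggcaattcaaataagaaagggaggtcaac
C34C12.8, III:3460200-3460300, plus strand: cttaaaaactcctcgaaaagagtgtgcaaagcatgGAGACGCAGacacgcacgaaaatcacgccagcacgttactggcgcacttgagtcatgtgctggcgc
F01G4.6, IV:11149771-11149846, plus strand: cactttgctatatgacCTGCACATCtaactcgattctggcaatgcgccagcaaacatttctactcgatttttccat
rpl-12, IV:13240659-13240759, plus strand: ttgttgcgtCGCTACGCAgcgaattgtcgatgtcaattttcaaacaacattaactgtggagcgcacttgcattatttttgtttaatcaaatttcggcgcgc
K04G7.1, III:7162403-7162503, minus strand: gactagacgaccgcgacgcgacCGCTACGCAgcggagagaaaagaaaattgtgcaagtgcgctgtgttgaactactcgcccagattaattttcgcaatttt

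The next stretches are the strongest 2 upstream regions of the IDR list, outside the same chromosome, that held none of these 4 words and also not GAGAGA or CACACA or CGTCTC or ACGCAG. They are shown on the strand of the gene, with no capitals.
Y17G9B.5, IV:4749997-4750097, plus strand: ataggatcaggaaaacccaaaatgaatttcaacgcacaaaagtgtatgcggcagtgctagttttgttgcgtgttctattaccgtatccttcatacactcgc
mig-5, II:8185137-8185237, minus strand: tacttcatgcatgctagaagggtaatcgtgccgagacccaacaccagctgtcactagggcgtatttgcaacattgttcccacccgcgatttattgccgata

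**Figure D1:**
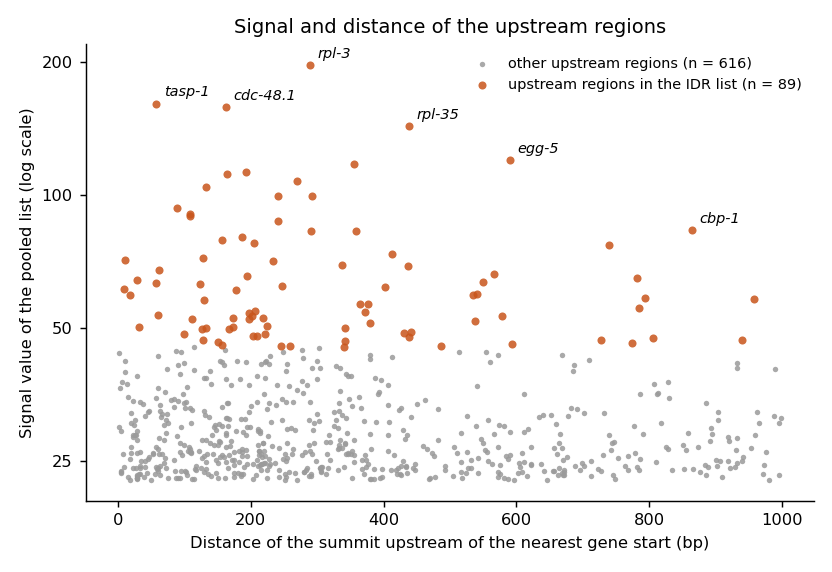
Signal value of the pooled list (log scale) of each of the 705 upstream regions against the distance of its summit from the nearest gene start, in bp, with the 89 regions of the IDR list in orange and the other 616 in grey. The regions of rpl-3, tasp-1, cdc-48.1 and rpl-35, with signals from 143 to 197, lie between 58 and 438 bp, and all IDR regions have signals of 45.4 or more.

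Of the 10 strongest upstream regions, 4 were nearest to a ribosomal protein, translation factor or chaperone gene of the lists described below, and of the 25 strongest 7 were. Over all upstream regions, 36 of the 694 nearest genes were of these lists. With every start within 1000 bp downstream of the summit counted, 7 of the 10 and 11 of the 25 had such a gene. Counted in that way, all upstream regions had 888 genes, of which 35 were ribosomal protein, 8 translation factor and 14 chaperone genes. The region of rpl-3, which encodes a protein of the large ribosomal subunit, had the highest signal value, 197, with a summit 289 bp before the start. In replicate 1 it had a signal of 109 and rank 12 of 11750, and in replicate 2 a signal of 76.6 and rank 7 of 30000. The region of tasp-1, the gene of a threonine aspartase, had a signal of 161 at 58 bp and ranked 14 and 16 in replicates 1 and 2. The region of cdc-48.1, the gene of the AAA ATPase that extracts ubiquitylated proteins, had a signal of 158 at 163 bp and ranked 17 and 10. These 3 regions thus stood in the first 17 of each replicate list. The regions of the ribosomal protein genes rpl-35 (signal 143, at 438 bp) and rpl-15 (signal 118, at 355 bp) ranked 23 and 11, and 52 and 18.

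Between rpl-35 and rpl-15 stood the region of egg-5, which acts in the transition from egg to embryo, with a signal of 120 at 590 bp. A further region of the IDR list lay before the same gene, with a signal of 58.5 at 794 bp, and both were overlapped by the same regions of replicate 1 (rank 18) and replicate 2 (rank 44). Both summits also lay within 200 bp of sls-2.4, a gene of a spliced leader RNA. egg-5 was the only gene with 2 IDR regions, and 11 of the 694 genes with an upstream region had 2 or more of any rank.

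The remaining 19 of the 25 strongest upstream regions had signals from 72.2 to 113. They included mig-5 (111.7, at 164 bp), the gene of a Dishevelled protein of Wnt signalling, and ska-3 (104.4, at 132 bp), a gene of a kinetochore-associated protein. Among them were also sec-61.G (99.5, at 241 bp), which encodes a subunit of the translocon, his-37 (93.4, at 89 bp), a histone gene, and iff-2 (89.8, at 109 bp), the gene of translation factor eIF5A. The list went on with wwp-1, a ubiquitin ligase gene (87.6, at 241 bp), cbp-1, the gene of the CBP/p300 histone acetyltransferase (83.4, at 864 bp), and cox-5A, a gene of cytochrome c oxidase (83.0, at 291 bp). The chaperone genes hsp-1 (82.8, at 358 bp) and dnj-9 (77.9, at 205 bp), the kinesin light chain gene klc-1 (77.2, at 740 bp) and the RNA-binding protein gene fust-1 (73.6, at 412 bp) followed. The other members of the 25 were Y17G9B.5 (113), eelo-2 (107.8), F01G4.6 (99.7), tos-1 (90.5), ekl-4 (80.3), C34C12.8 (79.3) and drr-2 (72.2). None of the 25 was nearest to a gene of the neuronal lists described below. Such genes were also few over all upstream regions, 15 of the 694 genes with one, so that none among 25 is near that share.

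zag-1 itself (IV:3855843-3861569, plus strand) had no upstream region. The nearest summit of the pooled list lay 23389 bp from its start, and the nearest upstream region 129830 bp away.

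Upstream regions were a larger share of the strongest regions than of the weaker ones, in the pooled list and in either replicate. Among the 100 strongest autosomal regions of the pooled list, 56.0% were upstream regions (interval 46.2 to 65.3), and the share was 46.7% over the next 150, 32.8% over the next 250 and 17.3% over the last 1178. In replicate 1 the first 100 autosomal regions held 49 upstream regions (interval 39.4 to 58.7%) and the last 5508 held 13.7%. In replicate 2 the first 100 also held 49, and the last 14161 held 13.4%. The weakest parts of the replicate lists thus came near the 12.2% of autosomal bases that the conditions cover.

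**Figure D2:**
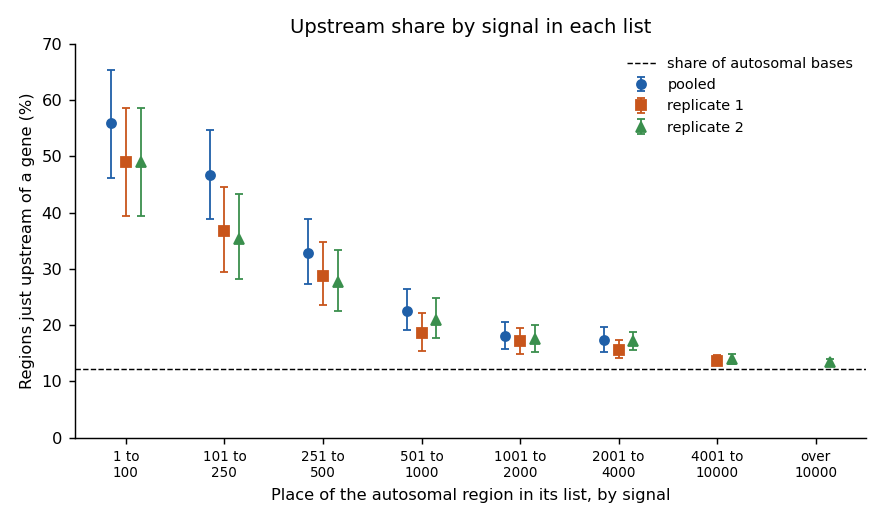
Percentage of autosomal regions that are upstream regions, by place in the list when sorted by signal, for the pooled list and each replicate, with Wilson 95% intervals as bars and the 12.2% of autosomal bases as a dashed line. The share falls from 56.0% to 17.3% in the pooled list, and from 49% to 13.7% in replicate 1 and 13.4% in replicate 2.

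The IDR list held 89 of the 705 upstream regions, or 12.6% (interval 10.4 to 15.3), against 6.13% of the whole pooled list. The share was 3.56% (2.90 to 4.36) over the 2473 other autosomal regions. By class it was 4.62% of 692 regions outside genes and over 1000 bp from a start, 3.40% of 1030 intronic regions and 1.01% of 496 coding exon regions. Of the 177 autosomal regions in the IDR list, 50.3% were upstream regions (interval 43.0 to 57.6). IDR membership followed the pooled signal: the IDR upstream regions ran from 45.4 to 197 with a median of 58.5, and the other 616 from 22.7 to 45.4 with a median of 26.6. The median over all upstream regions was 27.6, against 26.1 over the whole pooled list and 25.8 over the other autosomal regions. The weakest upstream region inside the IDR list was that of sqd-1 (45.388), and the strongest outside it that of rfc-4 (45.382).

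Distances from the start overlapped widely between the IDR regions and the others. The median distance was 241 bp in the IDR regions (quartiles 156 and 437), 279.5 bp in the others (139.75 and 539.5) and 380 bp over all positions that the conditions cover. The number of upstream regions per megabase (Mb) of such sequence was 80.0 within 100 bp of the start, 103 beyond that up to 250 bp, 69.9 from there to 500 bp and 48.9 farther out. For the IDR regions the same values were 7.04, 18.6, 8.55 and 4.70 per Mb. The IDR share was 18% (13.4 to 23.9) of the 205 regions between 100 and 250 bp, against 8.80% (4.98 to 15.1) of the 125 regions within 100 bp, and these intervals overlap. The IDR regions nearest to a start were those of eef-2, the gene of an elongation factor (9 bp, signal 61.3), enpl-1, a gene of an endoplasmic reticulum chaperone (11 bp, 71.2), and cdk-7, a gene of a cyclin-dependent kinase (18 bp, 59.3). The IDR region farthest from its start was that of C06A6.2 (958 bp, 58.2).

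**Figure D3:**
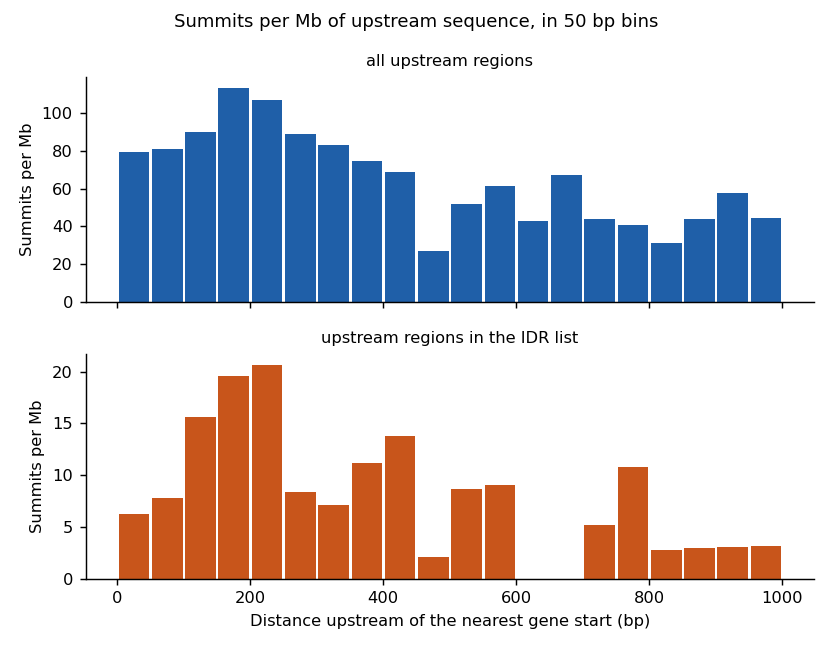
Summits per Mb of upstream sequence in 50 bp bins of distance from the nearest gene start, for all 705 upstream regions (top) and for the 89 in the IDR list (bottom). The highest bins are those from 151 to 200 bp for all upstream regions, with 113 per Mb, and from 201 to 250 bp for the IDR regions, with 20.7 per Mb.

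At the limit of 1000 bp, the last regions inside were those of H05C05.2 (999 bp, signal 31.3), Y55F3AM.5 (996 bp, 23.3) and let-60, the Ras gene (996 bp, 30.5). The first outside were those of otub-2 (1004 bp, 37.6), gar-3 (1005 bp, 28) and Y44A6C.1 (1010 bp, 29). None of the 6 was in the IDR list.

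IDR regions lay more often before 2 genes at once. Of the 89, 38 (42.7%, interval 32.9 to 53.1) had 2 or 3 protein-coding starts within 1000 bp downstream, against 154 of the other 616 (25%, 21.7 to 28.6). Of the positions that the conditions cover, 12% had such a start on each strand. That count leaves out positions before 2 starts of the same strand, so it is lower than a like count would be. Of the upstream regions with 2 or 3 such starts, 19.8% (14.8 to 26) were in the IDR list, and of those with 1 start 9.94% (7.64 to 12.8). Their median signals were 30.6 and 26.7. Several of the strongest regions named above for another gene also had a gene of protein synthesis or folding on the other side. The region of Y17G9B.5 lay 269 bp before rpl-20, that of ska-3 lay 161 bp before rps-12, and that of ekl-4 lay 210 bp before rps-20, all ribosomal protein genes. The region of mig-5 lay 256 bp before cct-1, the gene of a chaperonin subunit. That of F01G4.6 lay 317 bp before pfd-1, a prefoldin gene that is not in the chaperone list described below. Other such regions had a second start of a gene outside the ribosomal protein, translation factor and chaperone lists. These were tasp-1 (K01G5.10), sec-61.G (F32D8.13), klc-1 (let-70) and drr-2 (set-16). No share of such partners over all upstream regions was counted.

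Ribosomal protein genes had the highest share of genes with an upstream region among 26 gene lists, although its interval overlapped those of several other lists. An upstream region lay nearest to 21 of 81 such genes (25.9%, interval 17.6 to 36.4) and an IDR region to 8 (9.88%, 5.09 to 18.3). Over all 17242 autosomal protein-coding genes the shares were 4.03% and 0.510%. The 8 were rpl-3, rpl-35, rpl-15, rps-23 (signal 71), rpl-12 (63.1), rps-15 (54.3), ubl-1 (49.8), whose product joins a ubiquitin-like part to a ribosomal protein, and rps-28 (48.7). When every gene with a start 1 to 1000 bp downstream of the summit was counted, 35 ribosomal protein genes (43.2%) had an upstream region and 14 (17.3%) an IDR region, against 5.15% and 0.731% of all genes. The 6 added IDR genes were rpl-20, rps-12, rps-20, rps-19, rpl-22 and rpl-21. Of 70 mitochondrial ribosomal protein genes, 4 had an upstream region (5.71%, 2.24 to 13.8), none of them in the IDR list.

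Splicing, translation factor and chaperone genes also had shares above the 4.03% of all genes. Of 36 translation factor genes, 6 (16.7%, interval 7.87 to 31.9) had an upstream region. These were led by iff-2, eef-2, eif-3.C, a subunit of an initiation factor (signal 44.2), and eef-1G, of an elongation factor (44), and the first 2 were in the IDR list. Of 58 chaperone genes with cdc-48, 9 (15.5%, 8.38 to 26.9) had one, led by cdc-48.1, hsp-1, dnj-9 and dnj-29 (41.9), and the first 3 were in the IDR list. Of 41 splicing factor genes, 8 (19.5%, 10.2 to 34) had one, led by snr-4, a gene of a core small nuclear ribonucleoprotein (56.8), lsm-6 (44.4), rsp-1 (30.5) and prp-40 (30.03), and of these snr-4 was in the IDR list. The summit before snr-4 also lay within 200 bp of an annotated small nuclear RNA gene and inside a non-coding RNA gene. None of the 32 aminoacyl-tRNA synthetase genes had an upstream region (upper bound 10.7%). This interval includes the 4.03% of all genes and overlaps that of the translation factor genes. It lies below that of the ribosomal protein genes (17.6 to 36.4).

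Among the lists of neuronal genes only that of synaptic vesicle and pan-neuronal genes had a share whose interval lay above the background. Over the 6 neuronal lists, 15 of 242 genes (6.20%, interval 3.79 to 9.97) had an upstream region, and 1 (0.413%, 0.0730 to 2.30) had an IDR region, against 4.03% and 0.510% of all genes, and both intervals include the background. Of 24 synaptic vesicle and pan-neuronal genes, 6 (25%, interval 12 to 44.9) had one, with a highest signal of 39.9, and none was in the IDR list. The 6 were unc-16 (39.9), unc-108 (37.8), unc-104 (33.9), rgef-1 (28.6), egl-21 (26.4) and ida-1 (23.9), and unc-104 encodes the kinesin that carries synaptic vesicle precursors. Of 38 GABA and acetylcholine genes 2 had one, led by ric-3, of a receptor chaperone (40.9). Of 30 monoamine and glutamate genes 3 had one, with signals up to 26.1, and 3 neuropeptide and insulin genes had one (2.78%, 0.949 to 7.85), up to 26.3. None of 9 touch receptor genes had one. Of 33 axon guidance genes only unc-76, a gene of axon outgrowth, had one, and it was in the IDR list with a signal of 62.1.

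Nuclear hormone receptor genes had a smaller share than all genes, and the actin, tubulin and muscle list and the bZIP and heat shock regulator list had a larger one, with intervals above the background. Over all 26 lists, the interval lay above it in 9, below it in 1 and included it in 16. The intervals are not corrected for the number of lists. Of 24 bZIP and heat shock regulator genes 3 had an upstream region (12.5%, 4.34 to 31.0), with signals up to 31.7. The lower bound is close to the 4.03% of all genes. Of 246 nuclear hormone receptor genes, 3 had an upstream region (1.22%, interval 0.416 to 3.52), and of 145 collagen and cuticle genes, 2 did (1.38%, 0.379 to 4.89). Of 68 homeobox genes 5 did (7.35%, 3.18 to 16.1), with signals up to 28, and none of the regions of these 4 lists was in the IDR list. Of 31 bHLH genes, hlh-11 (56.7, in the IDR list) and hif-1, the hypoxia-inducible factor gene (23.6), had one. Of 43 actin, tubulin and muscle genes 5 did (11.6%, 5.07 to 24.5), led by the tubulin genes tba-2 (58.0, in the IDR list) and tbb-2 (43.4). Of 76 histone genes 1 did, his-37. Of 142 cell cycle and germline genes 5 did (3.52%, 1.51 to 7.98), and 3 of these were in the IDR list, egg-5, cdk-7 and cgh-1, the gene of a germline RNA helicase (46.9).

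Genes of energy supply and protein turnover gave a mixed picture. The intervals of the respiratory chain and ubiquitin conjugation lists lay above the 4.03% of all genes. Those of the proteasome and vacuolar ATPase lists included it. Of 36 respiratory chain and ATP synthase genes 4 had an upstream region (11.1%, interval 4.41 to 25.3), cox-5A in the IDR list and, outside it, the cytochrome c1 gene cyc-1 (44.6), cox-6A (37.3) and atp-3 (34.1). Of 49 ubiquitin conjugation genes 6 did (12.2%, 5.73 to 24.2), with only ubl-1, which is also in the ribosomal list, in the IDR list. Of 33 proteasome genes rpn-3 (37.2) and rpn-2 (33.5) had one, and of 18 vacuolar ATPase genes vha-3 (24.2), none of these in the IDR list. In all, 12 of the 26 lists had a gene with an IDR region.

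**Figure D4:**
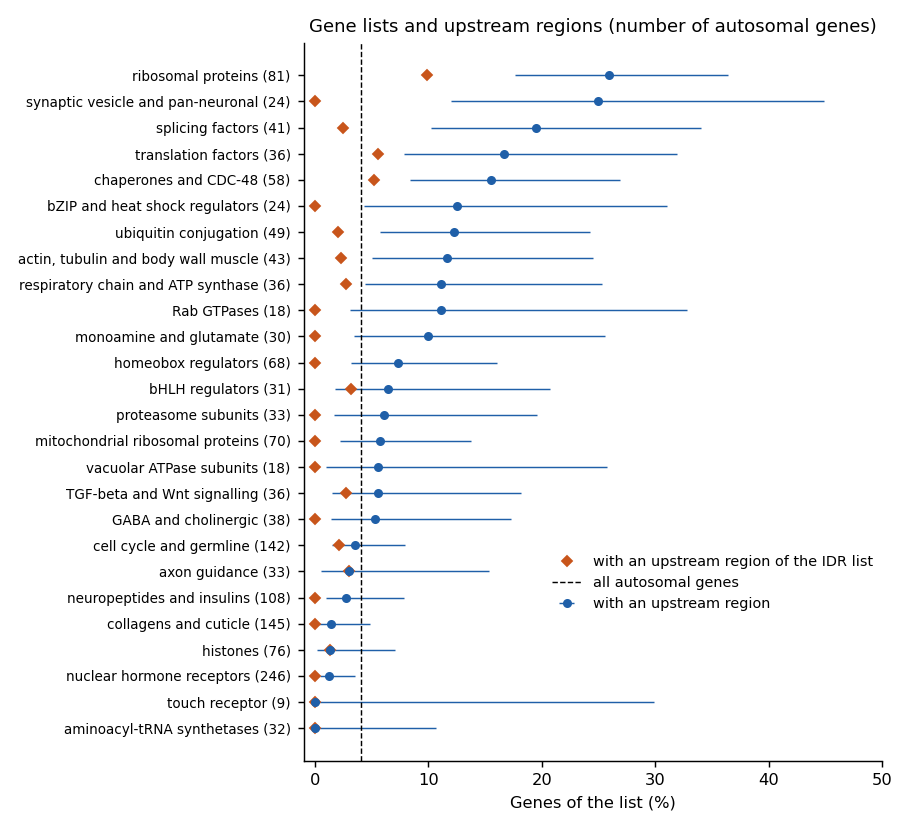
Percentage of the autosomal genes of each of 26 lists that are nearest to an upstream region (blue, with Wilson 95% intervals) or to an upstream region of the IDR list (orange), with the number of genes in parentheses and the 4.03% of all autosomal genes as a dashed line. Ribosomal protein genes reach 25.9% and 9.88%, while synaptic vesicle and pan-neuronal genes reach 25% with 0 in the IDR list.

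The pooled and IDR lists were made from both replicates, so that agreement between the replicates on the strong regions of these lists is partly built in. Among the 246 strongest regions of replicate 1, matches were found for 78 upstream regions (11.1%), against 6.53% of the whole pooled list. For the 246 strongest of replicate 2 the count was 76 (10.8%), against 5.89%. Both replicates matched 39 upstream regions (5.53%, interval 4.07 to 7.47), against 2.94% of the pooled list and 1.54% of the other autosomal regions. Of these 39, 38 were in the IDR list. A further 22 IDR upstream regions were matched by the strongest of replicate 1 alone, 17 by those of replicate 2 alone and 12 by neither. Of the 25 strongest upstream regions, 24 were matched in both, and the exception, iff-2, ranked 24 in replicate 1 and 710 in replicate 2.

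Some IDR regions ranked far higher in 1 replicate than in the other. The region of rpl-12, another large-subunit protein gene, ranked 40 in replicate 1 (signal 55.9) and 20629 in replicate 2 (signal 6.97). That of dld-1, the gene of a mitochondrial dehydrogenase, ranked 67 and 3410, and that of wip-1 ranked 42 and 2629. The reverse was seen for T10B5.4 (8488 and 76), gmps-1, a gene of GMP synthesis (1698 and 43), and cdk-7 (1400 and 38). All 89 IDR upstream regions were overlapped by a region of each replicate. Across them, the log2 signals of replicates 1 and 2 gave a rho (Spearman) of 0.256 and an r (Pearson) of 0.351. Across the 363 other upstream regions with a region in both replicates, rho was 0.0599 and r was 0.0713. Over all 452 upstream regions with a region in both replicates, rho was 0.385 and r 0.532. The first 2 pairs of values are within sets divided by the pooled signal, which narrows their range. The last pair is also over a chosen set, regions of the pooled list that were found in both replicates. All are over regions that share the same libraries. Of the 705 upstream regions, 567 were overlapped by a region of replicate 1, 580 by one of replicate 2, 452 by both and 10 by neither.

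**Figure D5:**
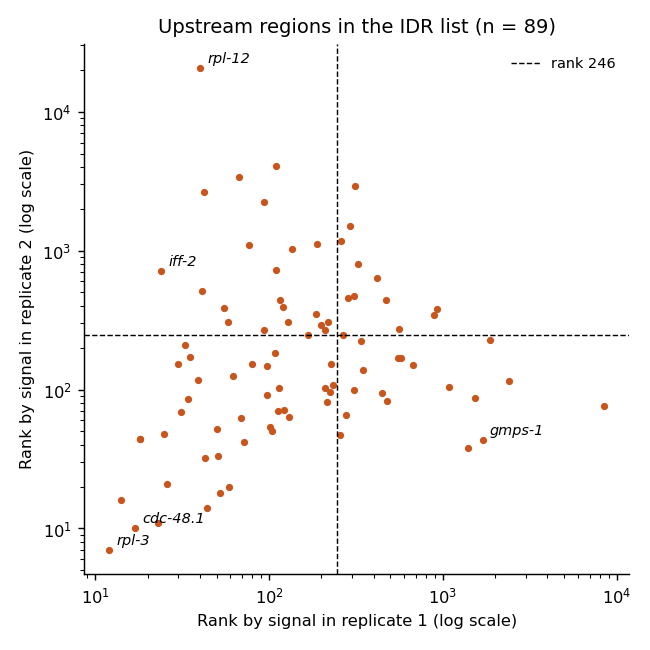
Rank by signal in replicate 1 against rank in replicate 2 (both log scales, rank 1 the strongest) for the 89 upstream regions of the IDR list, with dashed lines at rank 246. The lower left part holds 38 regions, among them rpl-3 and cdc-48.1, and rpl-12 stands apart with ranks 40 and 20629.

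The chromosomes differed in the density of upstream regions. Chromosome III had 106 and chromosome I 94.3 per Mb of the sequence that the conditions cover, followed by IV with 68.9, II with 65.1 and V with 45.8. For IDR regions the values were 16.5 on III, 15 on I, 10.1 on IV, 5.46 on II and 3.82 on V. The IDR share was 15.5% of 148 upstream regions on III (interval 10.6 to 22.2), 15.9% of 145 on I (10.8 to 22.7), 14.6% of 137 on IV (9.65 to 21.5), 8.40% of 131 on II (4.75 to 14.4) and 8.33% of 144 on V (4.83 to 14), and all these intervals overlap.

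Some upstream regions lay beside small RNA genes. No background share was counted for this or for summits inside non-coding genes. Of the 705, 29 had a summit within 200 bp of a tRNA, snoRNA or snRNA gene, 6 of them in the IDR list. They were 9 at tRNA genes, none in the IDR list, with signals up to 43.0, 12 at snoRNA genes with klc-1 and F59C6.18 (46.4) in the IDR list, and 8 at snRNA genes, the spliced leaders included, with 4 in the IDR list. Without these 29 the IDR share of the upstream regions was 12.3%. A summit lay inside a non-coding gene or pseudogene in 46 upstream regions, and 10 of these were in the IDR list (21.7%, interval 12.3 to 35.6).

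The bases within 100 bp of the summits of the IDR upstream regions differed in words from those of the other upstream regions. Words were counted on both strands, and the hexamers CGTCTC or its neighbour ACGCAG, with GAGAGA plus CACACA, were known from earlier work on these data, so that the shares are descriptions. CGTCTC was in 38.2% of the 89 IDR windows (interval 28.8 to 48.6), in 15.9% of the 616 others (13.2 to 19) and in 6.54% of 116703 windows at like distances from all autosomal starts. ACGCAG was in 36.0%, 15.1% and 5.73%. GAGAGA was in 37.1%, 21.8% and 13%, and CACACA in 33.7%, 14.1% and 9.84%. The choice of strongest regions mattered for these values. With the strongest regions of replicate 2 alone in place of the IDR list, the excess over other windows went from 19.6 to 6.44 percentage points for CACACA (interval −0.956 to 16.1) and from 20.9 to 12.1 for ACGCAG (3.97 to 22.1). With those of replicate 1 alone, it went from 22.3 to 11.7 for CGTCTC (3.22 to 22) and from 15.3 to 10.2 for GAGAGA (0.689 to 20.9), and from 19.6 to 13.2 for CACACA. Of all hexamers, the largest excesses in IDR over other windows were those of CGTCTC (22.3 percentage points), ACGCAG (20.9), ACACAC (20.6), GAGCGC (20.1) and CACACA (19.6). ACACAC overlaps with CACACA, while CGTCTC overlaps with ACGCAG in GAGACGCAG, whose opposite strand contains CGTCTC.

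The ZEB-type words were not among those found more often in the IDR upstream windows. CAGGTG was in 1 of the 89 IDR windows (1.12%, interval 0.199 to 6.09), in 2.60% of the others and in 5.22% of the windows at all starts. CAGGTA was likewise in 1 (1.12%), in 2.44% and in 4.38%. The E-box CACGTG was in 3.37%, 3.41% and 3.52%. TATAAA was in 7.87% of the IDR windows (3.86 to 15.4), 15.7% of the others and 26.2% at all starts. TGATAA, a word known from worm intestinal promoters, was in 7.87%, 14.8% and 20.7%, and TTTCAG, the worm 3′ splice site word, in 16.9%, 29.7% and 33.1%. CCGCCC was in 15.7%, 7.31% and 4.8%, and GTTCGANNC, the B box of tRNA genes, in 0 of 89, 2.11% and 1.12%. These words describe windows only, and a missing word says nothing of the factor.

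Base composition moved with these words. The median share of G and C was 44.3% in the IDR windows (quartiles 40.3 and 49.3), 36.8% in the other upstream windows (31.3 and 42.8) and 33.3% at all starts. Some hexamers of A and T were rarer in the IDR windows, by more points than CGTCTC was in excess, led by TAAAAA (−27.8 percentage points against other windows) and AAAATT (−23.8). Within windows of 40 to 50% G and C, 49 of them IDR and 178 other, CGTCTC was in 44.9% (interval 31.9 to 58.7) and 25.8% (19.97 to 32.7). CACACA was in 40.8% (28.2 to 54.8) and 18% (13 to 24.3). ACGCAG was in 40.8% and 28.7% and GAGAGA in 38.8% and 33.7%, and of the 4 words only CACACA had intervals that did not overlap. Within 30 to 40% G and C, 20 IDR and 279 other windows, CGTCTC was in 10% and 11.5%, CACACA in 0 and 12.2%, ACGCAG in 25% and 9.68% and GAGAGA in 30% and 17.6%. Within 50 to 60%, 18 IDR and 37 other windows, CGTCTC was in 50% and 48.6%, CACACA in 55.6% and 37.8%, ACGCAG in 38.9% and 35.1% and GAGAGA in 38.9% and 54.1%. Across the 3 ranges the difference kept 1 direction only for ACGCAG, and in the outer 2 ranges the intervals overlapped for each of the 4 words. The IDR regions of other classes held CGTCTC at shares near or above the 38.2% of the IDR upstream windows. These were 65.6% of 32 autosomal regions far from starts, 42.9% of 35 autosomal intronic regions and 37.7% of 69 regions on X. In the same order GAGAGA was in 65.6%, 62.9% and 55.1%, against 37.1% of the IDR upstream windows. CACACA was in 34.4%, 37.1% and 33.3%, against 33.7%, and ACGCAG in 34.4%, 40% and 30.4%, against 36.0%.

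The longer words printed above were rarer and were looked for after the sequences had been seen. Their excess in the IDR windows is thus partly built in, and the intervals do not allow for that choice. AACACGCT was in 8 IDR windows (8.99%, interval 4.63 to 16.7), in 3 of the other 616 (0.487%, 0.166 to 1.42) and in 0.422% of the windows at all starts. The 8 were the 5 printed first, cox-5A, Y39B6A.43 and tba-2, and all 9 occurrences in them had their centre within 50 bp of the summit. The 3 others were spas-1 (signal 38.6), D2096.5 (34.5) and dnj-16 (32.4). Outside the upstream regions it was in 0 of 32 autosomal IDR regions far from starts (upper bound 10.7%). It was in 1 of 35 intronic ones (interval 0.506 to 14.5%) and 1 of 69 on X (0.256 to 7.76%). These intervals overlap that of the IDR upstream windows. Among the 50 strongest upstream regions it was in 8, and among the last 305 in 0.

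GAGACGCAG was in 17 IDR windows (19.1%, interval 12.3 to 28.5), 42 others (6.82%) and 2.11% at all starts, and in 31.2% of the autosomal IDR regions far from starts. CTGCACATC was in 7 IDR windows (7.87%), 3 others (0.487%) and 0.183% at all starts. Its holders were F01G4.6, sec-61.G, wwp-1, rps-23, icd-2, eef-2 and tba-2, and icd-2 encodes a subunit of the nascent polypeptide-associated complex. CGCTACGCA was in 6 IDR windows (6.74%), 1 other and 0.0686% at all starts. Its holders were iff-2, wip-1, tag-340, rpl-12, hsr-9 and K04G7.1. At least 1 of the 4 longer words was in 35 of the 89 IDR windows (39.3%, 29.8 to 49.7), 48 of the others (7.79%) and 2.76% of the windows at all starts. With the 4 hexamers added, 69 of the 89 (77.5%, 67.8 to 85) and 43.0% of the others held at least 1.

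Most copies of these words before genes were not in a listed region. Of 195 copies of AACACGCT at positions that the conditions cover, 8 (4.10%, interval 2.09 to 7.89) lay in an IDR region and 14 (7.18%) in a region of the pooled list. Of 963 copies of GAGACGCAG 22 (2.28%) lay in an IDR region, of 64 copies of CTGCACATC 6 (9.38%) and of 22 copies of CGCTACGCA 6 (27.3%, 13.2 to 48.2). For all such positions the share inside an IDR region was 0.274%, and inside a pooled region 2.26%. The longer words were chosen with sequences of the IDR regions seen, so that their higher shares are partly built in. Of 2698 copies of CAGGTG, 0.185% lay in an IDR region.

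Some upstream regions shared longer stretches. In 16 sets, 46 upstream regions (6.52%) shared at least 20 identical bases with another within 100 bp of the summit, and 17 of these were in the IDR list, or 19.1% of the IDR regions against 4.71% of the others. Sets were built by linking regions that share a stretch, so that not every pair in a larger set need share one. The strongest region, rpl-3, shared such a stretch with cox-5A, and F01G4.6 was in a set with wwp-1, icd-2 and tba-2. The ribosomal protein genes rps-22 and rpl-39 were in a set with ekl-4, whose region lies before rps-20. Members of a set are thus not independent in their words.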

How the data were processed

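The data are ChIP-seq region lists of 2 biological replicates of whole L4 worms, with fragments of 150 to 350 bp per the labels. The lists used here, as deposited by the authors, are those of each replicate, of both pooled, and the optimal IDR list, all in ce11. Aligner, caller and IDR threshold were not given in the sources used here. Each region's signal value is deposited by the authors in a unit of their caller, and it was compared only within a list or by rank. The −log10 q-value, also deposited by the authors, served only as an alternative rank. Control reads and the ce10 lists were not used here.

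Summits (1-based) were placed on WBcel235 with Ensembl 115 genes, 17242 protein-coding genes on the autosomes, and given to the nearest start. A region was in the IDR list when an identical region was there, a choice made after seeing the lists, with overlap of at least 1 bp as an alternative. Replicates were matched by an overlap of at least 1 bp with their 246 strongest regions, as many as the IDR list has. Words were counted within 100 bp of summits on both strands. Windows for all starts lay at the 9 deciles of the distances of the IDR regions. No test was made, since there is 1 group, and shares have Wilson 95% intervals.

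The rule named the 25 strongest upstream regions, up to 4 per gene list by signal, the regions beside the limit and the 5 leading hexamers. Genes named beyond it, among them discordant regions, partner genes and word holders, were chosen after their values were seen. The upstream regions, the gene lists and the words were chosen with earlier results of these data known. The procedures were tested on simulated summits and words. Computation used Python 3.11.15, numpy 2.4.6, pandas 2.3.3, scipy 1.17.1 and matplotlib 3.10.9.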

Additional observations from a re-analysis of the deposited data

How the results depend on the processing

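Of 52 alternatives run, 36 stayed within the interval of the reported value, or within 1.5 times a reported count, 16 moved beyond it and none changed direction. The ranges of 30 to 40% and 50 to 60% G and C, given above, were not among these alternatives. In them, among the 4 hexamers, the difference turned for CGTCTC and CACACA in the lower range and for GAGAGA in the upper. The intervals overlapped there. The upstream share of autosomal regions was 16.3% with a limit of 500 bp, 28.8% with 2000 bp and 20.7% without summits inside any annotated gene. It was 20.1 to 20.7% in the strongest regions of 1 replicate alone. The IDR share stayed between 11.5% and 13.7% in the alternatives run. The share matched among the strongest of both replicates was 13.3% with 1000 and 27% with 4000 strongest regions each, and 10.8 to 11.1% with 1 replicate left out, where only 1 match is needed. The excess of a word in IDR over other upstream windows moved in 4 words. For CACACA it was 6.33 percentage points within 50 bp of the summit and 6.44 to 13.2 in single replicates. For CGTCTC it was 11.7 to 18.5 in single replicates. For ACGCAG it was 32.6 in the stronger part of the IDR regions. For GAGAGA it was 5.07 in windows of 40 to 50% G and C, an alternative chosen after seeing the data, as were 6 others. Counting every start within 1000 bp raised the ribosomal protein genes from 21 to 35 and the chaperone genes from 9 to 14. The causes were not tested. No paired analysis was possible because the 2 samples form 1 group. The signal of upstream regions has no value with a replicate left out, since the replicate lists are on other scales. The depth is unknown, and the limits of these data lie in the 2 replicates and in lists that include background.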
